A study of Homo sapiens with 8 samples.

Results

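The 10 genes described here encode the subunits of the transcription factor NF-kB and proteins that restrain or feed its activation. They were taken by gene symbol, and all 10 were found among the 14668 symbols of the count table. NFKB1, NFKB2, RELA, RELB and REL encode the 5 subunits, NFKBIA, NFKBIB and NFKBIE encode 3 inhibitors of the IkB family, and TNFAIP3 and BIRC3 encode 2 regulators that act on ubiquitin chains. The cells were T3M4, an established human pancreatic cancer line, in 4 groups of 2 libraries. One arm is labelled sgControl, with no word on its guide RNA, and the other sgMETTL13, for guide RNA against METTL13, the enzyme that methylates the translation elongation factor eEF1A. RNA-seq of poly(A) RNA and ribosome profiling, which counts the mRNA fragments protected by ribosomes (footprints), were made from lysates of each arm. Ribosomes were captured on beads with a puromycin analog (RiboLace), so footprints are those of ribosomes that bound it. All 8 libraries came from cells held without serum over 18 h and re-fed with 10% FBS over 2 h, so that no group shows the members before serum. The labels give neither the number of guides, nor whether the cells were a pool or a clone, nor whether replicates were separate cultures. P-values therefore measure only the spread between these libraries.

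NF-kB dimers wait in the cytoplasm, held by IkB proteins or by the ankyrin repeats of the NFKB1 and NFKB2 precursors. In the canonical route, signals from cytokine receptors activate the IkB kinase, IkB is tagged with ubiquitin and destroyed, and dimers with RELA or REL enter the nucleus. In the noncanonical route the NFKB2 precursor is trimmed to a DNA-binding subunit that pairs with RELB. NF-kB switches on several of its own regulators, above all NFKBIA and TNFAIP3, and is often active in pancreatic cancer cells.

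Because that feedback runs through kB sites near the genes' start sites, the sites are shown first. The kB decamer consensus (GGG, a purine, any base, A or T, 2 pyrimidines, then CC) was searched on both strands of RefSeq promoter windows of 300 bases (GRCh38.p14), which reach from 250 bases before to 50 bases after a start. The table held 13 windows for 8 of the 10 members; RELB and NFKBIE had no entry. At least 1 match was found for 7 of the 8, against 9.03% of the 11909 genes of the count table that had a window. A palindromic site counts on both strands, and genes with several starts had more windows to match. For each of the 7 the match nearest to a start, or the group of adjoining matches, is given with its flanks, 5′ to 3′ on the gene's strand, with the bases of the matches in capitals.
NFKB1, chr4:102501300-102501329, plus strand: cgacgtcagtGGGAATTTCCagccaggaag
NFKB2, chr10:102395674-102395703, plus strand: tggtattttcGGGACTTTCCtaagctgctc
REL, chr2:60881518-60881547, plus strand: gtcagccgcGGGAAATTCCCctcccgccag
NFKBIA, chr14:35404811-35404840, minus strand: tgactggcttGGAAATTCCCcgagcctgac
NFKBIB, chr19:38899932-38899961, plus strand: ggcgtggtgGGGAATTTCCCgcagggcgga
TNFAIP3, chr6:137867188-137867217, plus strand: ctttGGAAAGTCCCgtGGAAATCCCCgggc
BIRC3, chr11:102317339-102317368, plus strand: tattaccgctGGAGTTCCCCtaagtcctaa
The first capital letter lay upstream of the start site on which its window was placed. The distance was 49 bases in NFKB1, 21 in NFKB2, 47 in REL, 81 in NFKBIA, 28 in NFKBIB, 67 in TNFAIP3 and 135 in BIRC3. For NFKB2, NFKBIB and TNFAIP3 that start site lies inside the gene span given below, downstream of its first base. The windows placed on the first base of the NFKB2 and NFKBIB spans held 0 matches. TNFAIP3 held 2 matches side by side, both on the opposite strand. Matches farther from a start are not printed. Another NFKB2 window held 4, the printed NFKB2 window held 1 more at 176 bases, and BIRC3 held 1 more at 199 bases. Neither RELA window held a match, which says only that these letters were not in these windows. A match is a description of the sequence and not evidence of binding in T3M4.

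The RNA libraries held 20860953 to 48353722 counts each, and the footprint libraries 6063885 to 9837253. METTL13 itself was lower in every sgMETTL13 library, at 20.1 and 26.2 footprint CPM (counts scaled to a common library size with TMM) against 65.2 and 57.8 CPM with sgControl. The RNA libraries of sgMETTL13 stood apart from each other, with an SD of 0.847 for the log2 difference between replicates over all genes tested, against 0.365 in sgControl RNA and 0.326 and 0.277 in the footprints of sgControl and sgMETTL13. All 5 epithelial markers were expressed, with a summed mRNA level of 2775 to 4152 CPM. Of the 6 leukocyte and 6 fibroblast markers 3 and 5 were in the table, with summed mRNA levels of 20.2 to 49.04 CPM and 23.2 to 33.1 CPM. CD68 gave 19.9 to 49.04 CPM of the first sum, and COL1A1 gave 18.3 to 32.1 CPM and LUM 0.852 to 4.72 CPM of the second. The leukocyte marker PTPRC and the fibroblast markers COL1A2, COL3A1 and PDGFRB stayed below 1 CPM in every RNA library.

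In footprints 4 members were lower and 2 higher in sgMETTL13. NFKBIB fell by 49.4%, NFKB2 fell by 37.7%, NFKBIE fell by 37.5% and RELB fell by 28.3%, while TNFAIP3 and NFKBIA rose by 52.4% and 28.2%. NFKB1, RELA, REL and BIRC3 did not pass the test. All 10 members passed the filter on low counts, and 6 passed at an adjusted p below 0.05 (edgeR's quasi-likelihood test, adjusted by Benjamini-Hochberg over 10714 genes), 2 upward and 4 downward. Over all genes tested 21% passed, 8.94% upward and 12% downward. The members were chosen with results of these data known, so their share is a description. In one model over all 8 libraries, in which both assays share their spread, 0 members and 0 of all genes passed. No overlap between the arms was seen for 7 of the 10 members, against 64.1% of all genes. The median log2 fold change was -0.01 over the members and 0.01 over all genes. In lysates of many cells, fewer expressing cells and less RNA per cell cannot be told apart.

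**Figure D1:**
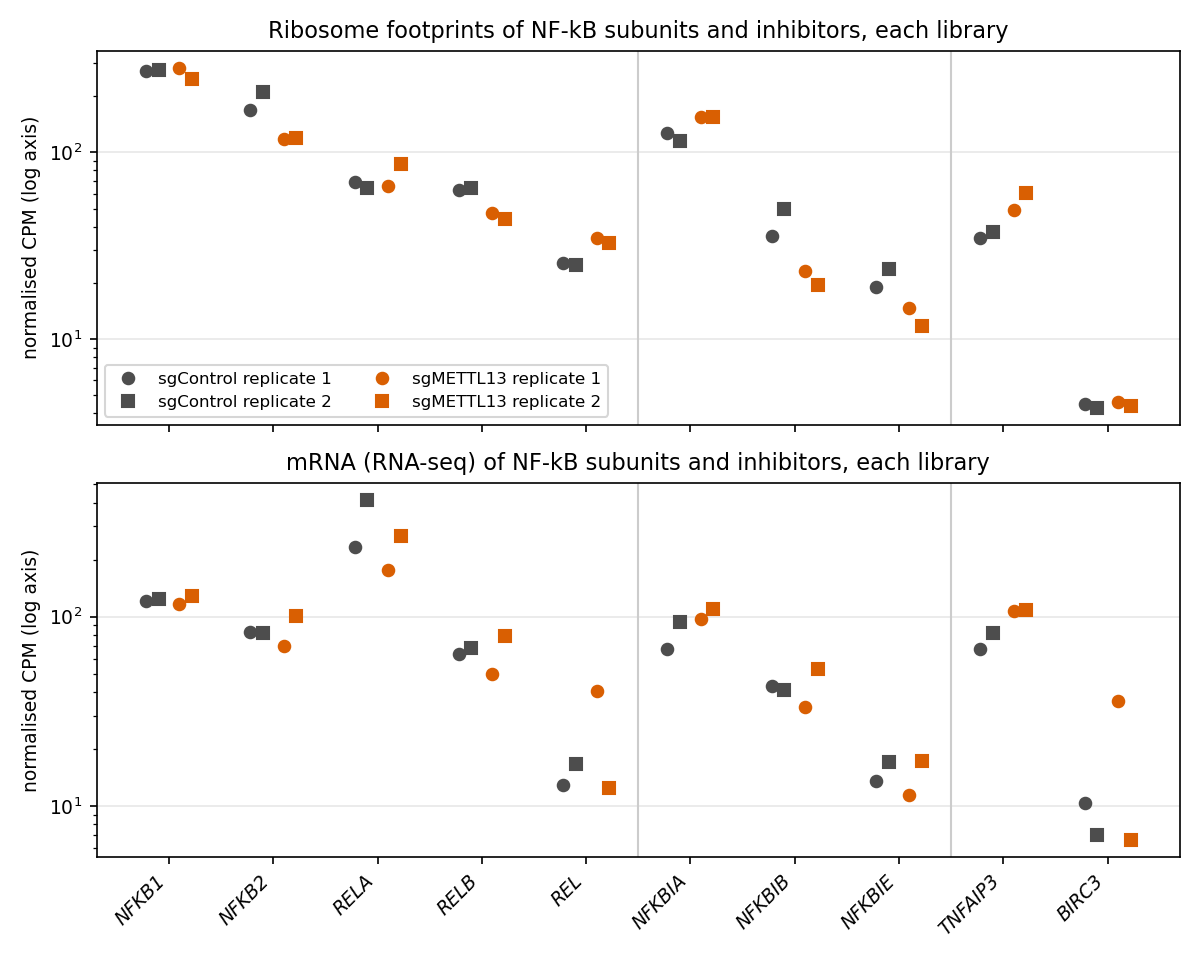
Normalised CPM (log axis) of each member in footprints (top) and mRNA (bottom), 1 point per library, with circles for replicate 1 and squares for replicate 2. In footprints the sgMETTL13 points of NFKB2, RELB, NFKBIB and NFKBIE lie below both sgControl points, and in mRNA the replicates of sgMETTL13 lie far apart for REL and BIRC3.

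Among the subunits, the pair of the noncanonical route had fewer footprints in sgMETTL13. NFKB2, on chromosome 10 at 102394110 to 102402529 (GRCh38), encodes the precursor that is trimmed to the partner of RELB. Its footprints were 169 and 211 CPM with sgControl against 117 and 119 CPM with sgMETTL13. The arms did not overlap, and the drop of 0.68 on the log2 scale (SE 0.135, n = 2 per arm) passed (adjusted p = 0.00067 by edgeR), also with any 1 footprint library left out. RELB, on chromosome 19 at 45001464 to 45038192, encodes the subunit that pairs with it. RELB footprints were 63.3 and 64.3 CPM with sgControl against 47.2 and 44.1 CPM with sgMETTL13, with little spread inside either arm. RELB fell by 0.48 on the log2 scale (SE 0.146, adjusted p = 0.0187 by edgeR) but kept its call in only 1 of the 4 fits with a library left out, the fit without sgControl replicate 1.

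The canonical subunits did not pass. NFKB1, on chromosome 4 at 102501359 to 102617302, encodes the precursor of the DNA-binding partner of RELA, and had the most footprint CPM of the members in each library, which is not a comparison per length. NFKB1 footprints were 275 and 275 CPM with sgControl against 284 and 246 CPM with sgMETTL13 (log2 fold change -0.05, SE 0.125, adjusted p = 0.809 by edgeR). RELA, on chromosome 11 at 65653601 to 65663857, encodes the main activating subunit, and its footprints were 69.6 and 64.3 CPM with sgControl against 65.7 and 86.4 CPM with sgMETTL13. The arms overlapped, and only sgMETTL13 replicate 2 was high (log2 fold change 0.18, SE 0.1496, adjusted p = 0.411 by edgeR). REL, on chromosome 2 at 60881574 to 60931612, encodes c-Rel, the related activating subunit best known from lymphocytes. REL footprints were 25.6 and 24.96 CPM with sgControl against 34.95 and 32.8 CPM with sgMETTL13. Its arms did not overlap, yet the difference of 0.42 (SE 0.164) missed the threshold (adjusted p = 0.0651 by edgeR) in this and every alternative fit.

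The 3 IkB inhibitors passed in opposite directions, NFKBIB and NFKBIE downward and NFKBIA upward, though NFKBIA only at the threshold. NFKBIB encodes IkB beta, which holds dimers that contain RELA or REL, and lies on chromosome 19 at 38899666 to 38908889. Its footprints were 35.6 and 49.8 CPM with sgControl against 23.3 and 19.5 CPM with sgMETTL13. This was the largest change of the 10 members in footprints, a log2 fold change of -0.98 (SE 0.177, adjusted p = 0.000278 by edgeR), and it passed with any 1 library left out, at -0.74 to -1.21. NFKBIE, on chromosome 6 at 44258166 to 44265551, encodes IkB epsilon. Its footprints were 19.0 and 23.8 CPM with sgControl against 14.7 and 11.7 CPM with sgMETTL13 (log2 fold change -0.68, SE 0.198, adjusted p = 0.0147 by edgeR). NFKBIE missed the threshold without sgControl replicate 2 and without sgMETTL13 replicate 2, at a log2 fold change of -0.52 and -0.53, and with DESeq2 (adjusted p = 0.0501).

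NFKBIA, on chromosome 14 at 35401513 to 35404749, encodes IkB alpha, which is destroyed and then made again within a round of signalling. Its footprints were 127 and 115 CPM with sgControl against 155.4 and 154.9 CPM with sgMETTL13, so the arms did not overlap. The rise of 0.36 on the log2 scale (SE 0.131) lay at the threshold (adjusted p = 0.0497 by edgeR). It was lost in 3 of the 4 fits with a library left out, with DESeq2, with its size factors in edgeR and with limma voom (adjusted p 0.0254 to 0.724 over the alternatives). For NFKB2, NFKBIB and NFKBIE the sgControl replicates already differed, replicate 2 being higher than replicate 1 by 0.32, 0.48 and 0.32 on the log2 scale. That difference ranked at the 85.9th, 93.6th and 86.4th percentile of all genes. For RELB it was 0.02. The part of this shared difference in the results was not tested.

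TNFAIP3 rose and BIRC3 did not pass. TNFAIP3, on chromosome 6 at 137866349 to 137883312, encodes A20, which edits ubiquitin chains and shuts the IkB kinase off. Its footprints were 34.6 and 37.4 CPM with sgControl against 49.1 and 60.6 CPM with sgMETTL13. Both sgMETTL13 libraries were higher than both controls (log2 fold change 0.61, SE 0.157, adjusted p = 0.00641 by edgeR), and the call was lost without sgMETTL13 replicate 2 (log2 fold change 0.45). BIRC3, on chromosome 11 at 102317484 to 102339403, encodes a ubiquitin ligase of the TNF receptor complex. It had few footprints, 37 and 25 reads with sgControl against 45 and 40 reads with sgMETTL13, or 4.48, 4.27, 4.57 and 4.39 CPM. The arms overlapped, and the log2 fold change was 0.03 (SE 0.288, adjusted p = 0.953 by edgeR).

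**Figure D2:**
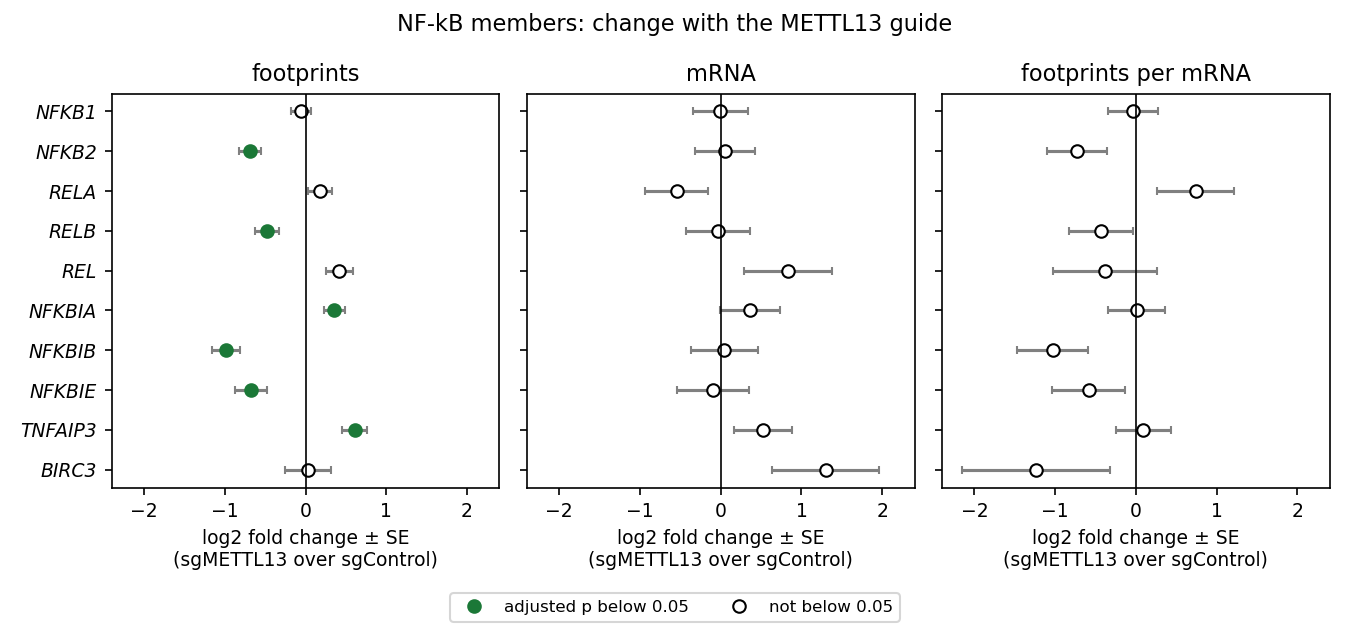
Log2 fold change of sgMETTL13 over sgControl with its standard error for each member in footprints, mRNA and footprints per mRNA; filled points have an adjusted p below 0.05. The filled points are the 6 members that passed in footprints, and in mRNA and footprints per mRNA there is none.

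The mRNA of no member passed. edgeR called 0 of the 10 members, and 0 were at an unadjusted p below 0.05. DESeq2 and limma voom also called 0 members. METTL13 itself, at a log2 fold change of -1.42 (SE 0.406), did not pass in mRNA either (unadjusted p = 0.00457, adjusted p = 0.9999 by edgeR). A missing call in mRNA therefore does not show that a member was unchanged. Over 12468 genes tested 0% passed, with 100 at an unadjusted p below 0.05, and the common coefficient of variation was 0.337 in mRNA against 0.0992 in footprints. The mRNA arms did not overlap in 2 members, TNFAIP3 and NFKBIA, against 12% of all genes. TNFAIP3 mRNA was 67.9 and 81.9 CPM with sgControl against 107 and 108 CPM with sgMETTL13 (log2 fold change 0.53, SE 0.357). NFKBIA mRNA was 67.3 and 93.5 CPM with sgControl against 96.8 and 110.0 CPM with sgMETTL13 (log2 fold change 0.36, SE 0.367). For these 2 the size of the mRNA difference lay close to that of the footprints, 0.61 and 0.36.

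The 4 members that fell in footprints showed mRNA differences near 0 with wide errors. NFKB2 mRNA was 83.03 and 82.0 CPM with sgControl against 69.7 and 101 CPM with sgMETTL13 (log2 fold change 0.05, SE 0.374). NFKBIB mRNA was 42.9 and 40.9 CPM with sgControl against 33.5 and 53.05 CPM with sgMETTL13 (0.05, SE 0.415). In both genes the sgMETTL13 replicates lay on either side of the controls. RELB mRNA was 63.8 and 68.3 CPM with sgControl against 49.9 and 78.8 CPM with sgMETTL13 (-0.04, SE 0.396). NFKBIE mRNA was 13.6 and 17.0 CPM with sgControl against 11.4 and 17.2 CPM with sgMETTL13 (-0.10, SE 0.450). In all 4 the sgMETTL13 replicate 2 was above replicate 1, by 0.54 to 0.66 on the log2 scale.

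The mRNA differences of REL and BIRC3 turned on 1 library. REL mRNA was 12.9 and 16.7 CPM with sgControl, then 40.3 CPM for sgMETTL13 replicate 1 but 12.5 CPM for its replicate 2. BIRC3 mRNA was 10.3 and 6.98 CPM with sgControl, then 36.1 CPM for sgMETTL13 replicate 1 but 6.61 CPM for its replicate 2. Replicate 1 was 3.24-fold and 5.46-fold above replicate 2. For replicate 2 over replicate 1 these gaps lay at the 8.61th and 1.84th percentile of all genes. Without replicate 2 both passed, as did 2509 of all genes, at log2 fold changes of 1.45 for REL and 2.05 for BIRC3, and without replicate 1 both changed sign, to -0.18 and -0.33. The footprints showed no such library: those of BIRC3 differed by 0.06 between the sgMETTL13 replicates and those of REL by 0.09, replicate 1 being the higher.

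RELA mRNA varied within both arms. It was 233 and 414 CPM with sgControl against 176 and 268 CPM with sgMETTL13 (log2 fold change -0.54, SE 0.392), and it passed only without sgMETTL13 replicate 2 (-0.88). NFKB1 mRNA varied least of the 10 over the 4 libraries, at 120 and 125 CPM with sgControl against 117 and 128 CPM with sgMETTL13 (log2 fold change -0.0036, SE 0.342).

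**Figure D3:**
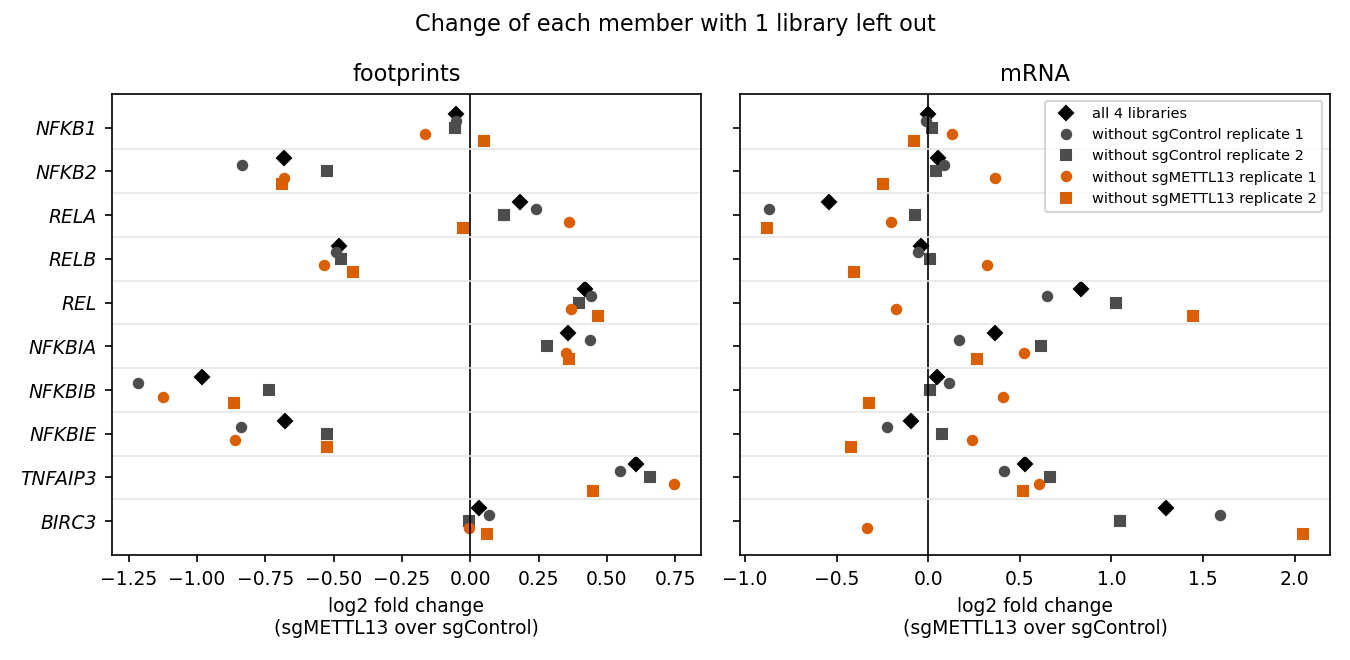
Log2 fold change of sgMETTL13 over sgControl for each member from all 4 libraries of an assay (diamonds) and with 1 library left out, in footprints (left) and mRNA (right). In footprints NFKB2, RELB, NFKBIB and NFKBIE stay below 0 and REL, NFKBIA and TNFAIP3 above 0 in every fit shown, whereas in mRNA 7 of the 10 members cross 0 in at least 1 fit, and RELA, NFKBIA and TNFAIP3 do not.

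Footprints per mRNA, a measure of ribosome load, differed between members in control cells. The log2 ratio of footprint CPM to mRNA CPM with sgControl was 1.182 for NFKB2, 1.15 for NFKB1, 0.77 for REL, 0.59 for NFKBIA and 0.47 for NFKBIE. It was -0.01 for NFKBIB, -0.06 for RELB, -0.97 for BIRC3, -1.06 for TNFAIP3 and -2.23 for RELA. NFKB1 and NFKB2 lay at the 79.1th and 79.8th percentile of 10446 genes and RELA at the 14.4th. The ratio joins the means of both assays, so the order of neighbours such as NFKB1 and NFKB2 was not tested. The ratio also depends on how much of an mRNA is coding, for which no lengths were used, and RELA mRNA differed by 0.83 on the log2 scale between the control replicates.

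The change in footprints per mRNA did not pass for any member. edgeR's interaction test over all 8 libraries called 0 of 10 members, and DESeq2 and limma voom also 0, against 0% of 10446 genes in edgeR. NFKBIB alone was at an unadjusted p below 0.05 (log2 difference -1.03, SE 0.442, unadjusted p = 0.0435, adjusted p = 0.999 in edgeR), as were 347 of all genes. NFKB2 read -0.73 (SE 0.371), NFKBIE -0.58 (SE 0.451), RELB -0.43 (SE 0.392) and RELA 0.74 (SE 0.476). The log2 differences of TNFAIP3 and NFKBIA were 0.09 (SE 0.341) and 0.01 (SE 0.352). The median over the members was -0.41 beside -0.11 over all genes. Without sgMETTL13 RNA replicate 1, NFKB2 (-1.06) and NFKBIB (-1.41) passed, and without replicate 2, REL (-0.99) and BIRC3 (-1.98) passed, when 500 and 1384 of all genes passed; which members passed thus differed with the RNA library kept.

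The makeup of each class was also read within each library, where scaling between libraries has no part. These shares were chosen after the values above had been seen, are of counts and not per length, and carry 95% Wilson intervals for counting error only. NFKBIA took 70.0% (67.6 to 72.2) and 60.9% (58.0 to 63.7) of the footprints of the 3 IkB genes in sgControl replicates 1 and 2. In sgMETTL13 it took 80.3% (78.5 to 82.1) and 83.2% (81.3 to 84.9), above both controls. In mRNA its share was 54.4% (52.9 to 55.8) and 61.8% (60.04 to 63.4) in sgControl against 68.3% (67.2 to 69.4) and 61.0% (59.9 to 62.2) in sgMETTL13, and the arms overlapped.

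NFKB1 took 61.9% (60.3 to 63.4) and 56.6% (54.8 to 58.4) of the footprints of the 2 precursor genes in sgControl, and 70.8% (69.3 to 72.2) and 67.4% (65.8 to 69.0) in sgMETTL13. In mRNA it took 59.2% (58.1 to 60.3) and 60.4% (58.9 to 61.8), then 62.6% (61.6 to 63.6) and 55.8% (54.8 to 56.8), with the sgMETTL13 libraries on either side of the controls. RELB took 39.9% (37.3 to 42.6) and 41.9% (38.7 to 45.1) of the footprints of RELA, RELB and REL in sgControl and 31.9% (29.6 to 34.4) and 27.0% (24.8 to 29.3) in sgMETTL13. Its mRNA share was 20.6% (19.9 to 21.3) and 13.7% (13.03 to 14.4) in sgControl and 18.7% (18.1 to 19.4) and 21.9% (21.3 to 22.6) in sgMETTL13. In footprints the arms were apart for all 3 shares, and in mRNA they overlapped for all 3. For single genes the arms were apart in 64.1% of all genes in footprints and in 12% in mRNA. The shares were formed from members whose footprint changes were known, so this contrast between the assays is a description only.

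**Figure D4:**
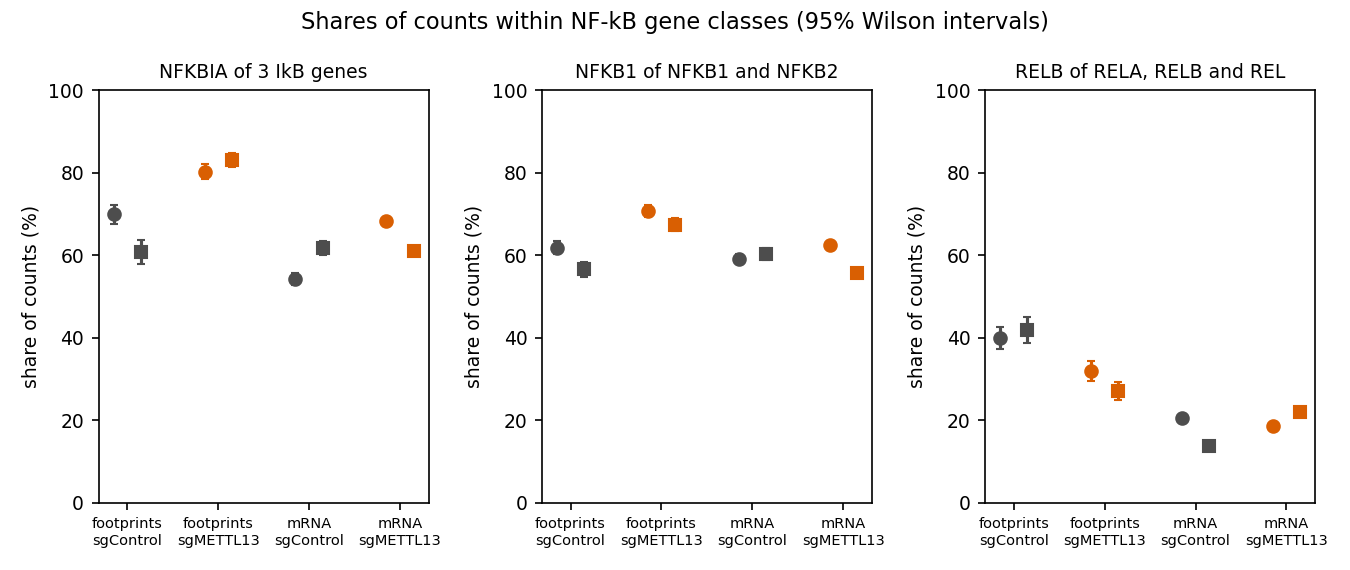
Share of counts in percent with 95% Wilson intervals, 1 point per library, for NFKBIA among the 3 IkB genes, NFKB1 among NFKB1 and NFKB2, and RELB among RELA, RELB and REL. In footprints the NFKBIA and NFKB1 shares are higher and the RELB share lower in both sgMETTL13 libraries than in both sgControl libraries.

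Other genes of the pathway were read from 4 lists, written with earlier results of these data known. Among receptors and adaptors 16 of 22 were tested in footprints, 1 rose and 2 fell, with a median log2 fold change of -0.08 beside 0.01 over all genes. These 3 of 16 lie near the 21% of all genes that passed, so the counts show nothing about the list, and its genes are given as values. TRAF2 and RIPK1, which build the kinase platform at the TNF receptor, fell by 0.56 (SE 0.149, adjusted p = 0.00769 by edgeR) and 0.61 (SE 0.170, 0.0116). The death receptor gene TNFRSF10B rose by 0.50 (SE 0.144, 0.0131). Among 22 activating kinases and ubiquitin ligases, all tested, 2 rose and 3 fell (median -0.08), and 5 of 22 is again near the 21% of all genes. The IkB kinase genes CHUK (-0.24, SE 0.151), IKBKB (-0.36, SE 0.1596) and IKBKG (0.10, SE 0.213) did not pass. UBE2M and NEDD8, which activate the cullin ligase that tags IkB, fell by 1.92 (SE 0.181) and 0.63 (SE 0.125). SHARPIN, part of the ligase that builds linear ubiquitin chains, fell by 0.91 (SE 0.198), and XIAP, a ubiquitin ligase related to BIRC3, rose by 0.67 (SE 0.158). The adjusted p of these 4 ran from 8.47e-09 to 0.0031.

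Among the other inhibitors and nuclear IkB proteins 16 of 18 were tested, 1 rose and 3 fell (median -0.05), and 4 of 16 is also near the 21% of all genes. BCL3, a nuclear IkB protein that binds the products of NFKB1 and NFKB2, went from 5.32 and 10.4 CPM with sgControl to 2.74 and 3.40 CPM with sgMETTL13, a fall of 1.31 (SE 0.315, adjusted p = 0.00364 by edgeR). TNIP2 and TNIP1, which bind A20, fell by 0.73 (SE 0.164) and 0.39 (SE 0.123), and N4BP1 rose by 0.58 (SE 0.159). Of 29 NF-kB target genes 25 were in the table and 19 were tested. In this list 9 rose and 1 fell, beside 8.94% and 12% of all genes, with a median of 0.47 in footprints and 0.38 in mRNA beside 0.01 and 0.04 over all genes. The mRNA median was 0.22 without sgMETTL13 RNA replicate 1. In footprints IL1A rose by 1.09 (SE 0.126) and PTGS2, the inducible prostaglandin synthase, by 0.98 (SE 0.152). SDC4 footprints rose by 0.57 (SE 0.124) and those of CXCL8 by 0.69 (SE 0.174). IL1A mRNA was 192 and 146 CPM with sgControl, then 564 CPM for sgMETTL13 replicate 1 but 134 CPM for its replicate 2. In the same order PTGS2 mRNA was 28.1, 30.8, 74.5 and 23.5 CPM, and CXCL8 mRNA 24.8, 20.2, 69.9 and 18.9 CPM. In each of these genes sgMETTL13 replicate 2 lay below both controls. SDC4 mRNA was 575 and 466 CPM with sgControl against 623 and 658 CPM with sgMETTL13. In mRNA none of the genes of these 4 lists passed, and 0 were at an unadjusted p below 0.05. Without sgMETTL13 RNA replicate 2, when 2509 of all genes passed, 3 receptors and adaptors, 5 kinases and ligases, 4 other inhibitors and 5 targets rose in mRNA. Of the named genes of the 4 lists, UBE2M, NEDD8, TNIP2, IL1A and PTGS2 kept their call with any 1 footprint library left out, and each of the others lost it at least once. Without sgControl replicate 2, as without sgMETTL13 replicate 2, 3 targets rose and none fell, and 6 rose with DESeq2. Over all 4 fits with 1 library left out, 0 to 3 receptors and adaptors rose and 0 to 2 fell. For the kinases and ligases 0 to 3 rose and 2 to 4 fell, and for the other inhibitors 0 to 1 rose and 1 to 3 fell.

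**Figure D5:**
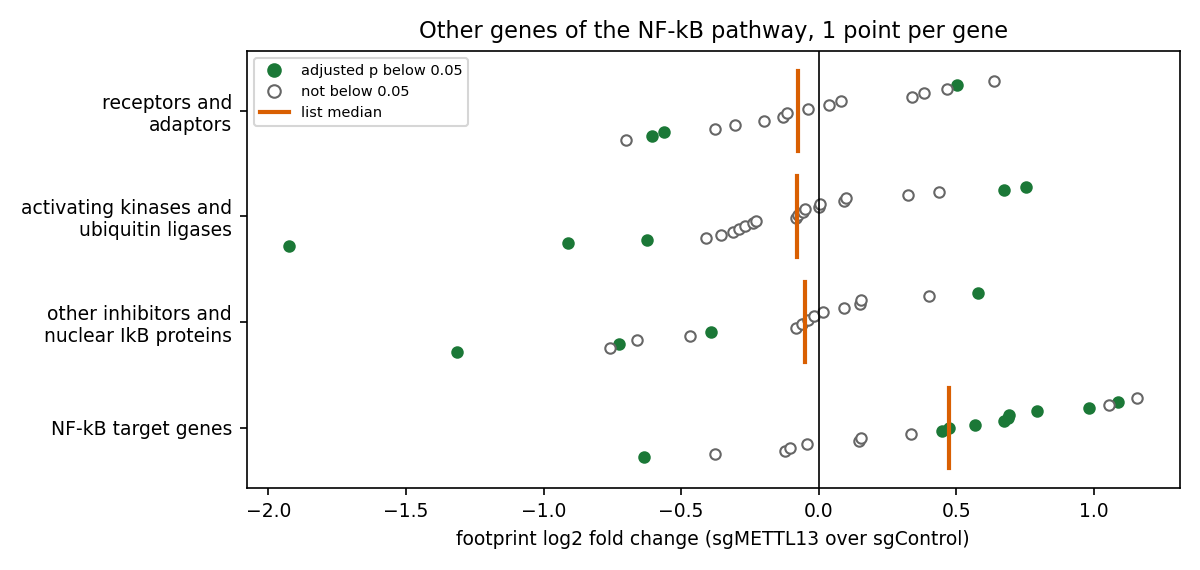
Footprint log2 fold change of sgMETTL13 over sgControl for every tested gene of the 4 pathway lists, 1 point per gene, filled where the adjusted p was below 0.05, with the list median as a bar. The median of the target genes lies at 0.47 and those of the other 3 lists between -0.08 and -0.05.

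The genes with profiles most like those of the 6 members that passed in footprints were sought by the root mean square difference of log2 CPM, centred within each assay, over the 8 libraries. The nearest to NFKB2 were CST3, MAEA and UHRF1 (0.0425 to 0.0443 on the log2 scale), and to RELB they were GMEB2, TWF2 and CYBC1 (0.0223 to 0.0397). FKBP8, LRRC47 and PODXL2 were nearest to NFKBIB (0.0421 to 0.0476), and AP3D1, ZC3H4 and NOC2L to NFKBIE (0.0365 to 0.0521). The 2 members that rose had more distant neighbours. PTPRE, DUSP1 and PER2 lay nearest to NFKBIA (0.0846 to 0.116), and DUSP6 and JAG1 were among the nearest to TNFAIP3 (0.0818 and 0.108). In footprints PTPRE (adjusted p = 0.230 by edgeR), DUSP1 (0.131), PER2 (0.157) and DUSP6 (0.0679) did not pass, whereas JAG1 (0.000354) did. The neighbours named for the members that fell all passed. These are descriptions, since all genes were read in the same 8 libraries and share the scaling and depth of each library.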

How the data were processed

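The authors deposited 1 table of raw counts, with gene symbols in rows and the 8 libraries in columns; groups followed the labels. The submitters' processing notes name cutadapt 1.18, Bowtie 1.2.2, HISAT2 2.0.4, UMI-tools, featureCounts and the build hg38, without saying which served which assay. RNA libraries were stranded, per the labels' protocols. Whether strand was used in counting, and how reads with several matches were treated, is not given in the sources used here. NFKB1, RELA and TNFAIP3 overlap non-coding RefSeq genes and REL a small RNA pseudogene, so their counts are less certain. Coordinates are from RefSeq (GRCh38.p14), in which all 14668 symbols matched.

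The tests used edgeR 4.0.16 under R 4.3.3, with the quasi-likelihood F test, default expression filter and TMM within each assay. Footprints and mRNA were fitted apart, and footprints per mRNA as an interaction over all 8 libraries on genes that passed both filters. P-values were adjusted by Benjamini-Hochberg over all genes tested, with 0.05 as threshold. Each standard error was got by dividing the log2 fold change by the root of its F value. By counting error alone, a gene without reads could hold 3 counts, or 0.144 CPM in the RNA library of least depth and 0.495 CPM in the least deep footprint library. Scripts were tested on simulated counts. Alternatives were DESeq2 1.42.0, limma voom (3.58.1), DESeq2 size factors, no filter, a replicate block, all 8 libraries in one model, and each library left out.

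The members, gene lists (receptors and adaptors, activating kinases and ubiquitin ligases, other inhibitors and nuclear IkB proteins, NF-kB targets, epithelial, leukocyte and fibroblast markers) and tests were chosen with earlier results of these data known. Besides the members, METTL13, up to 4 genes of each pathway list with the smallest footprint p among those that passed, and the 3 nearest profiles of each member that passed were named by rule; 1 of these profiles is not reported here. CHUK, IKBKB and IKBKG, and the markers singled out, were named outside it, after their values were seen.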

Additional observations from a re-analysis of the deposited data

How the results depend on the processing

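In footprints the 6 members that passed kept their direction in all 10 alternatives. With 1 library left out, 2 to 6 members passed, as did 701 to 3018 of all genes (824 without sgControl replicate 2, 701 without sgMETTL13 replicate 2). DESeq2 called 1479 genes. Fitting all 8 libraries in one model called 0 members and 0 genes; the cause was not tested. In mRNA, leaving out 1 library gave 0 to 3 members and 0 to 2509 genes, and for footprints per mRNA 0 to 2 members and 0 to 1384 genes. DESeq2 called 5 genes for footprints per mRNA, none of them a member. A lone library left in an arm was assumed to vary like the other libraries of the fit.

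Values that changed sign belonged to members that had not passed the test concerned. With 1 library left out the log2 footprint change ran from -0.17 to 0.050 for NFKB1, -0.025 to 0.36 for RELA and -0.0043 to 0.070 for BIRC3. In mRNA it ran from -0.075 to 0.13 for NFKB1, -0.24 to 0.37 for NFKB2, -0.41 to 0.32 for RELB, -0.18 to 1.45 for REL, -0.32 to 0.41 for NFKBIB, -0.42 to 0.24 for NFKBIE and -0.33 to 2.05 for BIRC3. For footprints per mRNA it ran from -0.20 to 0.064 for NFKB1, -0.99 to 0.58 for REL, -0.25 to 0.21 for NFKBIA, -0.066 to 0.23 for TNFAIP3 and -1.98 to 0.35 for BIRC3. The value for NFKBIA was -0.014 with limma voom and -0.0045 with the replicate block.

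The labels do not say that a replicate number marks a shared culture. The log2 differences between replicates correlated between the arms at -0.195 in footprints and 0.410 in mRNA, over genes. With the replicate block 4 members and 1729 genes passed in footprints, RELB (adjusted p = 0.0507 by edgeR) and NFKBIA (0.122) no longer among them. In mRNA 0 members passed. For footprints per mRNA the block instead paired the RNA and footprint libraries of the same arm and number, and 0 members passed. The log2 replicate differences of the paired assays correlated at 0.173 in sgControl and 0.014 in sgMETTL13, over genes. Depth limits BIRC3, with 25 to 45 footprints per library.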
